A study of Arabidopsis thaliana with 12 samples.

Results

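The genes described here are 40 enzymes and carriers of malate and citrate metabolism in *Arabidopsis* roots, chosen by gene identifier from the 25872 genes of the expression table. They were picked by function, with earlier results of these data known. The 40 genes comprise 6 malate dehydrogenases, 5 citrate synthases, 3 aconitases, 4 isocitrate dehydrogenase genes, 2 fumarases, 4 phosphoenolpyruvate (PEP) carboxylases, 6 malic enzymes, 5 subunit genes of ATP-citrate lyase and the tonoplast dicarboxylate transporter *TDT*. The other 4 genes, *PCK1*, *MLS*, *ICL* and *SDH1-1*, are on the list of identifiers although they belong to none of these classes. Peroxisomal malate dehydrogenases are not among the members. All 40 were found in the table, and 36 of them passed the limit on low values (at least 0.5 FPKM in at least 3 libraries) that 20773 genes passed in all.

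The study compared wild-type (WT) *Arabidopsis thaliana* with plants that overexpress the soybean NAC transcription factor gene *GmNTL4* (OX), and roots of both were sequenced without Al (control) and with Al, with 3 libraries in each of the 4 groups and 12 in all. Al was 5 µM AlCl3, and the duration is 24 h in the sample labels and 48 h in the design text and methods. The construct carries the constitutive 35S promoter, so the transgene is not limited to roots. The sources do not say which line or how many lines the OX libraries came from, and nothing states that replicates were separate cultures, so p-values measure only the spread between these libraries. Transcripts of *GmNTL4* itself were not analysed here.

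Malate and citrate are the main organic acids that roots release to bind Al3+, and the malate channel ALMT1 and the citrate carrier MATE export them. In the mitochondrion, malate dehydrogenase, citrate synthase, aconitase, isocitrate dehydrogenase, succinate dehydrogenase and fumarase are steps of the tricarboxylic acid cycle. In the cytosol, PEP carboxylase makes oxaloacetate, malate dehydrogenase reduces it to malate, malic enzymes turn malate into pyruvate, and ATP-citrate lyase splits citrate into acetyl-CoA and oxaloacetate. TDT carries malate into the vacuole, the main store of the cell.

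FPKM (fragments scaled to gene length and library total) allow levels to be compared between genes. Each library held 16165912 to 17139180 fragments on genes, and within groups libraries correlated at 0.951 to 0.983 on the log2 scale. The libraries differed in ways that the 4 groups do not explain. The summed level of 20 green-tissue genes was 636 FPKM in WT control replicate 1, 996 and 775 FPKM in WT Al replicates 2 and 3, and 169 to 340.4 FPKM in the other 9 libraries. The 8 root marker genes were detected in every library (summed level 91.0 to 183 FPKM), the lowest of them being the root hair gene *COBL9* and the root cap gene *SMB*. The summed level of 5 seed storage genes was at most 5.72 FPKM. Replicate 1 of both control groups was low for *ALMT1* and *MATE*, with values given beside the members that moved with them. For members, values without these libraries are given beside the changes that rested on them. How reads that match more than 1 paralogue were counted is not given in the sources used here, so the split between near-identical isoforms is uncertain.

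As a family these genes were highly expressed in roots, and in most classes 1 isoform led. Among the 20773 genes tested, the 36 tested members lay at a median percentile of 91.5 by mean FPKM, and 21 of them were in the top 10%. The median level was 63.2 FPKM for the members and 11.0 FPKM for all genes tested. A mean of at least 100 FPKM over the 12 libraries was found for 11 of the 40 members. Their summed level lay between 3775 and 4883 FPKM in all libraries.

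**Figure D1:**
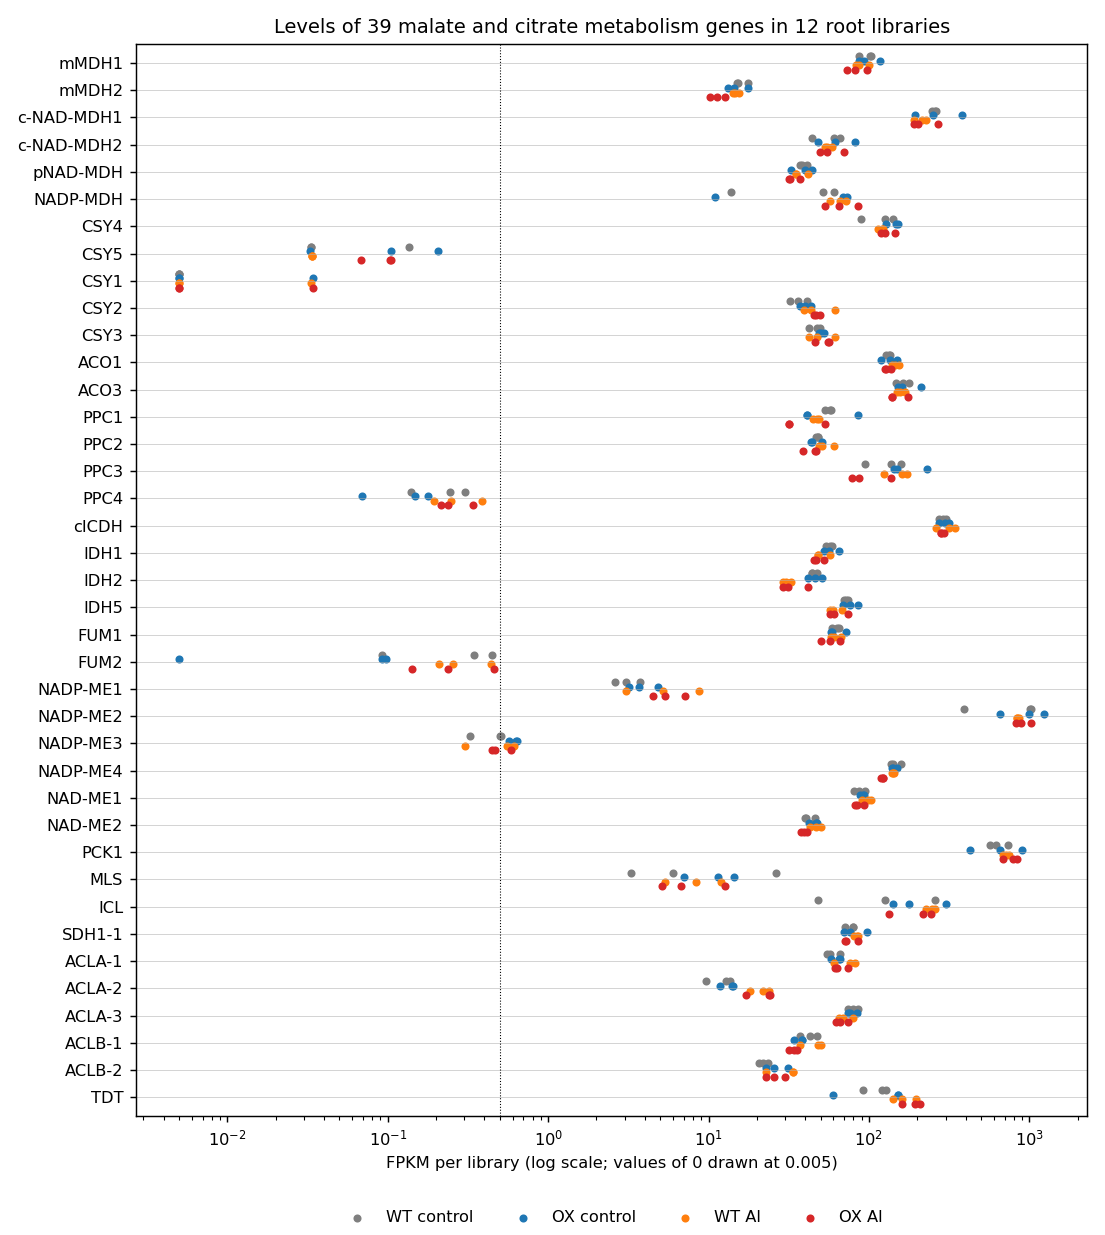
FPKM of 39 members (rows) in 12 root libraries on a log scale, coloured by group, with values of 0 drawn at 0.005 and a dotted line at the limit of 0.5 FPKM. The groups overlap in most rows, levels span from under 0.1 FPKM (*CSY1*, *CSY5*) to over 1000 FPKM (*NADP-ME2*), and *NADP-MDH*, *MLS* and *ICL* are the most scattered.

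Among the malate dehydrogenases, which interconvert oxaloacetate and malate, the cytosolic form *c-NAD-MDH1* (AT1G04410) was the highest. It had 262, 248 and 258 FPKM in WT control, 379, 194 and 249 FPKM in OX control, 191, 213 and 226 FPKM in WT Al and 268, 189.6 and 202 FPKM in OX Al libraries. OX control replicate 1 was the highest of all, and the groups overlapped except that the WT Al libraries lay below the WT control libraries. The other cytosolic form, *c-NAD-MDH2* (AT5G43330), had 44.0 to 81.5 FPKM, or 14.4% to 22.5% of the summed cytosolic level. The mitochondrial form *mMDH1* (AT1G53240, 73.3 to 117 FPKM) made up 85.0% to 88.5% of the mitochondrial level, and *mMDH2* (AT3G15020, 10.3 to 17.7 FPKM) the rest. Of the plastid forms, the NAD-dependent *pNAD-MDH* (AT3G47520) lay at 31.7 to 44.5 FPKM, and the NADP-dependent *NADP-MDH* (AT5G58330), known as the light-activated malate valve enzyme, at 11.0 to 84.9 FPKM.

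Citrate synthase, which joins oxaloacetate and acetyl-CoA, was represented mainly by the mitochondrial *CSY4* (AT2G44350). *CSY4* had 88.8, 142 and 126 FPKM in WT control and 148, 127 and 152 FPKM in OX control, 123, 121 and 114 FPKM in WT Al and 146, 126 and 119.7 FPKM in OX Al libraries. WT control replicate 1 was the lowest, and the groups overlapped. The peroxisomal forms *CSY2* (AT3G58750, 32.1 to 61.3 FPKM) and *CSY3* (AT2G42790, 42.0 to 61.5 FPKM) each held 15.8% to 26.8% of the summed citrate synthase level. The other 2 genes were near 0. *CSY5* (AT3G60100) had 1 to 6 fragments in each library and *CSY1* (AT3G58740) at most 1, with 9 libraries at 0. *CSY1* (chr3:21720773-21723790, minus strand) and *CSY2* (chr3:21724306-21728137, minus strand, TAIR10.1) are neighbours on chromosome 3, so a gene with 3 fragments over all 12 libraries lies next to one with a mean of 42.9 FPKM.

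Aconitases isomerise citrate to isocitrate. *ACO3* (AT2G05710) had 163, 178 and 148 FPKM in WT control, 211, 152 and 160.4 FPKM in OX control, 156, 168 and 149.9 FPKM in WT Al and 176, 140.0 and 138 FPKM in OX Al. *ACO1* (AT4G35830) lay at 119 to 154 FPKM. It was among the steadiest members, its lowest and highest libraries lying close together in all groups. The cytosolic NADP-isocitrate dehydrogenase *cICDH* (AT1G65930), which makes 2-oxoglutarate outside the mitochondrion, had 300.5, 275 and 291 FPKM in WT control, 315, 297 and 274 FPKM in OX control, 315, 261 and 341 FPKM in WT Al and 294, 280.1 and 280.1 FPKM in OX Al. The groups overlapped for *cICDH*. The mitochondrial NAD-isocitrate dehydrogenase is built of regulatory subunits, here *IDH1* (AT4G35260, 45.7 to 65.2 FPKM) and *IDH2* (AT2G17130, 29.1 to 51.1 FPKM), and catalytic ones, here *IDH5* (AT5G03290, 57.4 to 85.0 FPKM). The mitochondrial fumarase *FUM1* (AT2G47510) had 64.7, 63.6 and 59.0 FPKM in WT control, 71.7, 57.6 and 58.6 FPKM in OX control, 60.6, 57.9 and 66.6 FPKM in WT Al and 65.6, 50.4 and 56.8 FPKM in OX Al. The cytosolic *FUM2* (AT5G50950), known for fumarate storage in leaves, stayed at 0 to 0.458 FPKM and was not tested. *SDH1-1* (AT5G66760), the flavoprotein subunit of succinate dehydrogenase, lay at 69.9 to 97.7 FPKM.

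PEP carboxylase supplies oxaloacetate for malate in the cytosol, and *PPC3* (AT3G14940), a plant-type form, was the leading isoform with 47.3% to 64.1% of the summed level. *PPC3* had 94.7, 159 and 136 FPKM in WT control, 231, 150.1 and 143 FPKM in OX control, 172, 124 and 160.4 FPKM in WT Al and 137, 86.5 and 77.8 FPKM in OX Al libraries. *PPC1* (AT1G53310) lay at 31.7 to 85.7 FPKM and *PPC2* (AT2G42600) at 39.0 to 60.3 FPKM. The bacterial-type *PPC4* (AT1G68750, 0.0693 to 0.389 FPKM) was too low to be tested. PEP carboxykinase, which runs from oxaloacetate back to PEP, was among the highest members. *PCK1* (AT4G37870) had 619.8, 566 and 736 FPKM in WT control, 429, 899 and 659 FPKM in OX control, 714, 744 and 683 FPKM in WT Al and 680.5, 834 and 794 FPKM in OX Al. The control libraries spread more widely than the Al libraries, and all groups overlapped.

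Malic enzymes decarboxylate malate to pyruvate. The cytosolic *NADP-ME2* (AT5G11670) was the highest of all 40 members, with a mean of 881 FPKM, and held 70.4% to 89.0% of the NADP-malic enzyme transcript. The plastid form *NADP-ME4* (AT1G79750) lay at 119 to 159 FPKM. *NADP-ME1* (AT2G19900, 2.63 to 8.66 FPKM) and *NADP-ME3* (AT5G25880, 0.304 to 0.642 FPKM), both cytosolic, were low. The mitochondrial NAD-malic enzyme subunits kept a nearly fixed ratio, *NAD-ME1* (AT2G13560, 81.1 to 102 FPKM) making up 66.1% to 70.2% of their sum and *NAD-ME2* (AT4G00570, 37.9 to 50.3 FPKM) the rest.

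ATP-citrate lyase consists of A and B subunits. Of the A subunit genes, *ACLA-3* (AT1G09430) was the highest, with 85.9, 73.7 and 79.6 FPKM in WT control, 74.5, 76.3 and 84.0 FPKM in OX control, 64.9, 79.3 and 68.5 FPKM in WT Al and 73.9, 62.7 and 66.0 FPKM in OX Al. *ACLA-1* (AT1G10670) followed at 55.0 to 81.8 FPKM and *ACLA-2* (AT1G60810) at 9.58 to 24.1 FPKM. Of the B subunit genes, *ACLB-1* (AT3G06650) lay at 31.6 to 50.4 FPKM and *ACLB-2* (AT5G49460) at 20.7 to 33.8 FPKM.

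No member passed both limits for a call (an adjusted p not above 0.05 with a log2 fold change no smaller than 1 in either direction, limma with Benjamini-Hochberg adjustment over all 20773 genes) in any of the 5 comparisons. Calls over all genes were few as well. The share called was 0.0385% for OX against WT under Al, 0.0433% for OX against WT in control, 0.332% for Al against control in WT, 0.862% for Al against control in OX and 0% for the interaction of genotype and Al. With an adjusted p of at most 0.05 alone, again 0 of the 36 members passed in each of the 5 comparisons. An unadjusted p under 0.05 was reached by 6 members for OX against WT under Al (10.8% of all genes did so), by 0 in control (4.71%), by 5 for Al in WT (12.5%), by 9 for Al in OX (13.7%) and by 2 for the interaction (4.98%). Limma voom on the fragments read back from the FPKM also called 0 members, and it gave the same 6, 0, 5, 9 and 2 at an unadjusted p under 0.05. These counts rested on single libraries, so no order against the shares of all genes is read from them. For OX against WT under Al the count was 2 without OX Al replicate 2 (6.81% of all genes). It was 3 without WT Al replicate 1 (7.91%), WT Al replicate 3 (7.67%) or OX Al replicate 3 (7.63%). It was 5 without WT Al replicate 2 (13.4%) or OX Al replicate 1 (10.3%). For Al in OX it was 4 without OX control replicate 1 (11.6%), OX Al replicate 2 (8.56%) or OX Al replicate 3 (8.81%). It was 10 without OX control replicate 2 (12.8%), and 11 without OX control replicate 3 (12.9%) or OX Al replicate 1 (15.8%). For Al in WT it was 2 without WT control replicate 2 (11.3%) and 3 without WT control replicate 3 (9.01%) or WT Al replicate 1 (9.97%). It was 6 without WT control replicate 1 (15.8%), and 5 without WT Al replicate 2 (13.1%) or WT Al replicate 3 (11.1%). In control it was 2 without WT control replicate 1 (5.57%) or OX control replicate 1 (5.31%) and 1 without WT control replicate 2 (6.33%). For the interaction it lay between 1 and 3 (3.24% to 8.32% of all genes).

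The intervals set how large a change could have been missed. The 95% interval of the log2 fold change lay within -1 and 1 for 32 of the 36 members under Al, 31 in control, 30 for Al in WT, 28 for Al in OX and 28 for the interaction. *NADP-MDH*, *ICL* and *MLS*, which had the widest intervals, were outside these bounds in all 5 comparisons, and *PPC1*, *PPC3*, *NADP-ME1*, *NADP-ME2*, *ACLA-2* and *TDT* in some of them. The median log2 fold change of the members was -0.09 for OX against WT under Al (all genes -0.03), 0.07 in control (-0.01), 0.08 for Al in WT (0.01), -0.12 for Al in OX (-0.01) and -0.17 for the interaction (-0.03). The corresponding numbers of members above 0 were 13, 27, 21, 8 and 4 of 36 (44.8%, 48.5%, 52.4%, 48.1% and 45.4% of all genes). Without OX control replicate 1 the median in control was 0.01 and 19 members were above 0. For the interaction 8 were above 0 without WT Al replicate 2, and 7 without WT control replicate 1 or OX Al replicate 3. The 8 root marker genes lay on the same side of 0 in the same comparisons, with 1, 6, 6, 1 and 1 of 8 above 0 and medians of -0.31, 0.40, 0.19, -0.31 and -0.59. Their summed level was 91.0 to 183 FPKM in WT control, 146 to 158 FPKM in OX control, 109 to 151 FPKM in WT Al and 99.1 to 117 FPKM in OX Al libraries, and none was at 0. The part of these markers in the members' values was not tested.

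**Figure D2:**
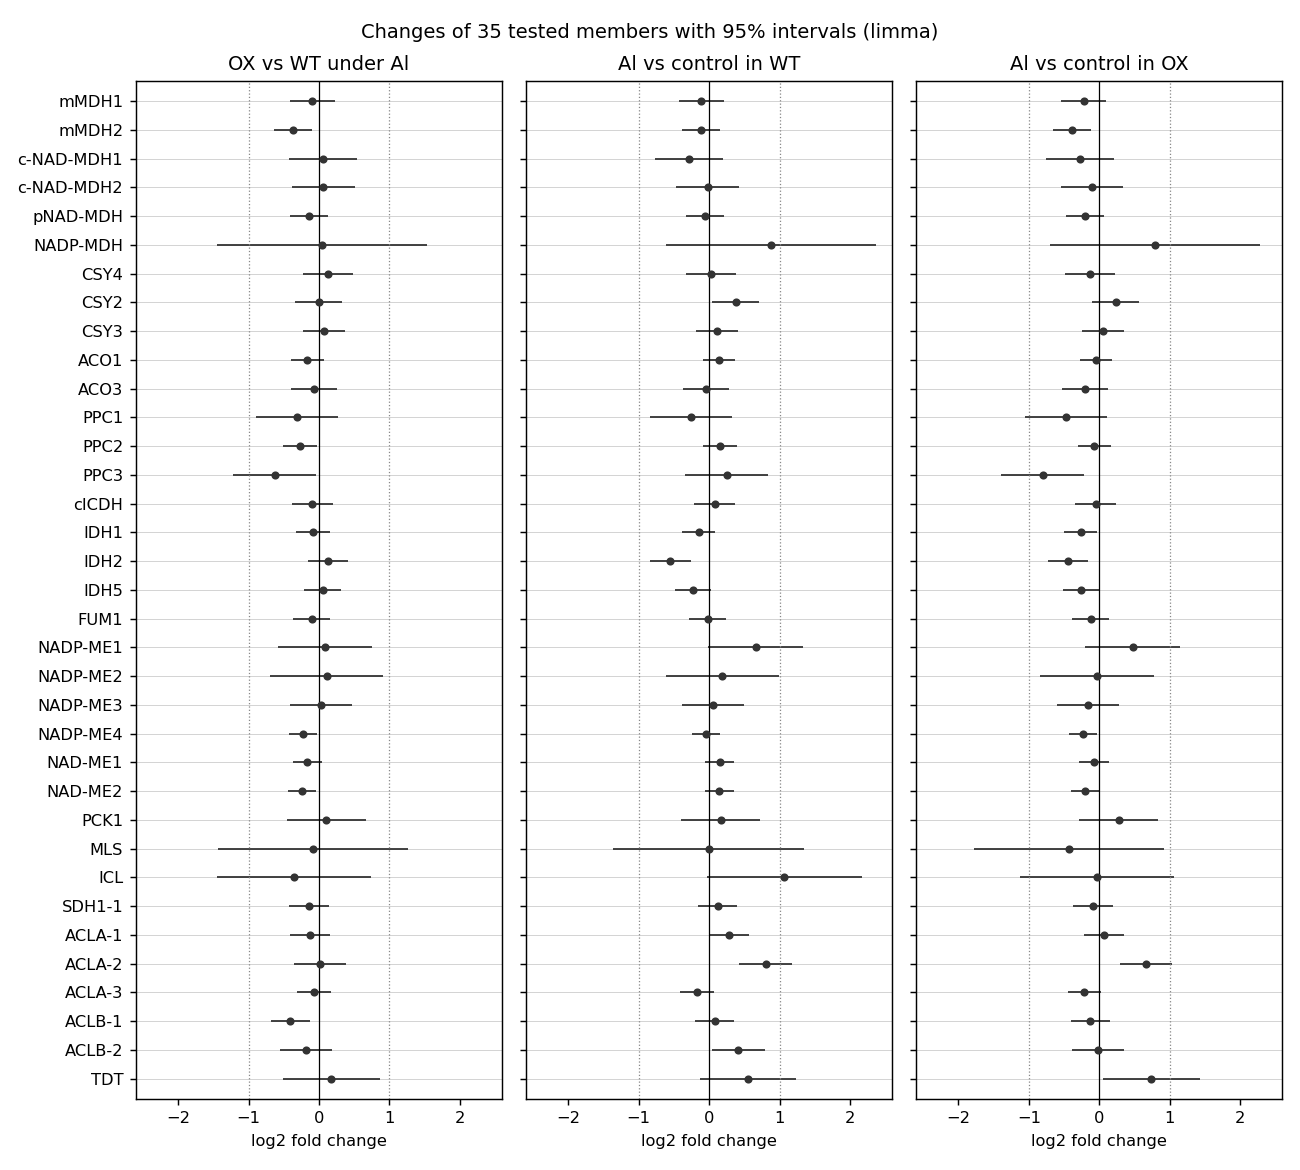
Log2 fold change (points) with 95% intervals (lines) of 35 tested members (rows) for OX against WT under Al, Al against control in WT and Al against control in OX, with dotted lines at -1 and 1. Intervals of *ACLA-2* lie above 0 and those of *IDH2* below 0 in both Al panels, and the widest intervals are those of *NADP-MDH*, *MLS* and *ICL*.

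Ranked by unadjusted p for Al, the first members in WT and in OX were the ATP-citrate lyase subunit *ACLA-2* and the NAD-isocitrate dehydrogenase subunit *IDH2*. *ACLA-2* had 13.6, 9.58 and 12.8 FPKM in WT control and 23.6, 18.2 and 21.8 FPKM in WT Al libraries, and 13.9, 11.9 and 14.3 FPKM in OX control and 17.1, 23.6 and 24.1 FPKM in OX Al libraries. Every Al library was above every control library, in both genotypes. The log2 fold change was 0.80 in WT (SE 0.17, adjusted p = 0.0738, limma) and 0.66 in OX (SE 0.17, adjusted p = 0.0858, limma), neither past the limit. *IDH2* had 44.0, 44.1 and 47.2 FPKM in WT control and 30.2, 32.6 and 29.1 FPKM in WT Al libraries, and 51.1, 41.6 and 45.8 FPKM in OX control and 41.6, 31.2 and 29.1 FPKM in OX Al libraries. All WT Al libraries were below all WT controls, whereas OX Al replicate 1 lay level with the lowest OX control. The log2 fold change of *IDH2* was -0.55 in WT (SE 0.13, adjusted p = 0.0953, limma) and -0.45 in OX (SE 0.13, adjusted p = 0.128, limma). Without OX Al replicate 1, both genes passed the limit in OX (adjusted p = 0.0257 and 0.0157, limma). Over all genes, 319 were then higher and 381 lower at an adjusted p of at most 0.05, against 81 and 174 with all libraries. Without OX Al replicate 2 the adjusted p was 0.366 for *ACLA-2* and 0.455 for *IDH2* (limma). Without OX Al replicate 3 it was 0.357 and 0.478 (limma). For each gene, 1 of 17 alternatives in OX passed.

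Averaged over both genotypes, a comparison added after the data had been seen, Al raised *ACLA-2* by 0.73 on the log2 scale (SE 0.12, 95% interval 0.47 to 0.99, adjusted p = 0.00651, limma). In the same fit *IDH2* fell by 0.50 (SE 0.09, 95% interval -0.70 to -0.30, adjusted p = 0.0116, limma). These were the members at an adjusted p of at most 0.05 in this fit, 1 higher and 1 lower of 36, against 2.49% of all genes higher and 2.63% lower, so their number is near that of all genes. *ACLA-2* kept an adjusted p of at most 0.05 in all 23 alternatives, at most 0.0463. *IDH2* did so in 22 of 23 and had an adjusted p of 0.0905 without WT Al replicates 2 and 3. None of the other subunits of both enzymes had an adjusted p of at most 0.05 in this fit. *ACLA-2* went from 7.91% ± 1.01 to 12.8% ± 1.21 of the summed A subunit level in WT (SD, n = 3) and from 8.63% ± 0.46 to 13.9% ± 2.41 in OX (SD, n = 3), while the sum itself stayed between 140.3 and 170.3 FPKM. *IDH1* and *IDH5* had log2 fold changes over both genotypes of -0.21 (adjusted p = 0.166, limma) and -0.25 (adjusted p = 0.126, limma), in the direction of *IDH2* but smaller, and the summed level of the 3 genes went from 174 ± 4.70 to 143 ± 9.26 FPKM in WT and from 181 ± 19.3 to 146 ± 18.8 FPKM in OX (SD, n = 3). Of the other lyase genes, *ACLA-1* had a log2 fold change with Al of 0.29 in WT and 0.07 in OX, *ACLA-3* of -0.17 and -0.21, *ACLB-1* of 0.08 and -0.13 and *ACLB-2* of 0.42 and -0.02. The values of *ACLB-2* and *ACLA-1* in WT were among the 5 with an unadjusted p under 0.05 (adjusted p = 0.342 and 0.393, limma).

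**Figure D3:**
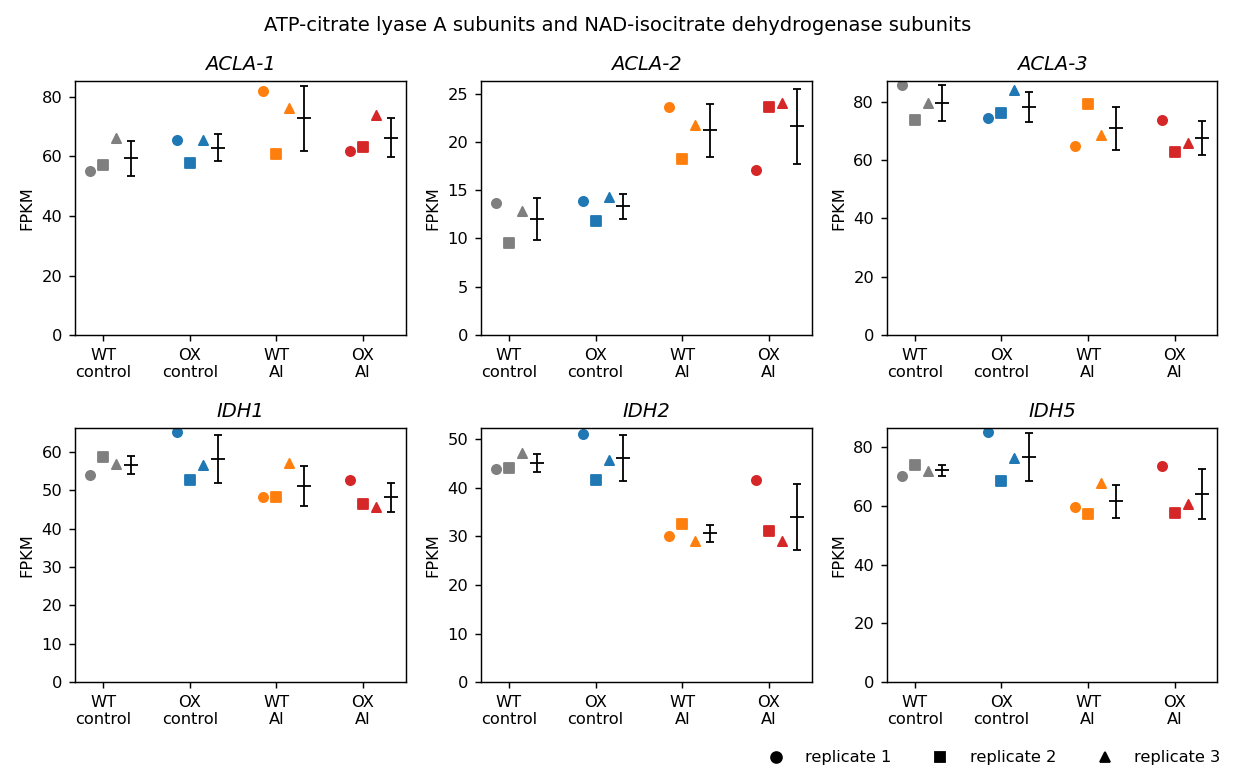
FPKM of 3 ATP-citrate lyase A subunit genes (top) and 3 NAD-isocitrate dehydrogenase subunit genes (bottom) by group, with a symbol for each replicate and mean ± SD (n = 3) at the right of each group. *ACLA-2* lies at 9.58 to 14.3 FPKM in the 6 control and 17.1 to 24.1 FPKM in the 6 Al libraries, and *IDH2* is lower in Al apart from OX Al replicate 1.

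The bases just before *ACLA-2* and *IDH2* are shown because these members had an adjusted p of at most 0.05 in the added Al comparison. Each run is the 250 bases upstream of the annotated gene start in TAIR10.1, in the direction of transcription, for *ACLA-2* at chr1:22391238-22391487 and *IDH2* at chr2:7462608-7462857, both on the minus strand. Capitals mark CATGT (either strand), a motif bound by NAC factors, and CACGTG. The *IDH2* window reaches into the neighbouring gene AT2G17140.
ACLA-2: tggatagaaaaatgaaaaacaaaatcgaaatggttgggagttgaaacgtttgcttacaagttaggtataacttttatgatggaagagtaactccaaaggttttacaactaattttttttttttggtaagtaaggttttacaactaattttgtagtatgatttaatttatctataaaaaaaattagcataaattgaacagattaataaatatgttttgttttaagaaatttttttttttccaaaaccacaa
IDH2: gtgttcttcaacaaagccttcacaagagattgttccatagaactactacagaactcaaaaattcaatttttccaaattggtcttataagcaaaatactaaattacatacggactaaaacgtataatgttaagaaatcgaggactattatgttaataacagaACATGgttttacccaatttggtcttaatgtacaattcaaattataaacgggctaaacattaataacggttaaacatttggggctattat
*ACLA-2* held neither motif in this window and *IDH2* held 1 CATGT. Over the 40 members, 13 windows (32.5%) held CATGT and 2 (5.0%) CACGTG, against 34.7% and 7.0% of the 23950 windows of the same length before protein-coding genes in the table. CATGT and its complement overlap in ACATGT, which counted once for a window.

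Of the other members, the tonoplast carrier *TDT* (AT5G47560) had higher values in the Al libraries without passing the test. It had 91.7, 127 and 121 FPKM in WT control and 161, 197 and 141 FPKM in WT Al, and 59.7, 152 and 151 FPKM in OX control and 161, 208 and 192 FPKM in OX Al libraries. All Al libraries of a genotype were above its controls, with control replicate 1 the lowest of each genotype. The log2 fold changes were 0.55 in WT (SE 0.31, adjusted p = 0.515, limma) and 0.74 in OX (SE 0.31, adjusted p = 0.316, limma), and without control replicate 1 they were 0.41 and 0.29. In WT, 5 members lay above all controls under Al, *ACLA-2*, *TDT*, *ACO1*, *PPC2* and *SDH1-1* (8.25% of all genes did so), and 4 lay below, *IDH2*, *IDH5*, *c-NAD-MDH1* and *PPC1* (8.17%). In OX, 3 lay above, *ACLA-2*, *TDT* and *CSY2* (9.11%), and 6 below, *mMDH2*, *PPC3*, *NADP-ME4*, *IDH1*, *NAD-ME2* and *ACLA-3* (11.4%). None of these members apart from *ACLA-2* and *IDH2* had an adjusted p under 0.1.

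Compared with WT under Al, OX roots had lower values of several members, none of which passed the test. *ACLB-1*, a B subunit of ATP-citrate lyase, and mitochondrial *mMDH2* ranked first by unadjusted p. *ACLB-1* had 47.95, 37.0 and 50.4 FPKM in WT Al and 33.9, 31.6 and 35.4 FPKM in OX Al libraries. All OX libraries lay below the lowest WT library, and limma gave a log2 fold change of -0.41 with an SE of 0.13 and an adjusted p of 0.365. For *mMDH2* the values were 14.6, 14.2 and 15.5 FPKM in WT Al and 12.6, 10.3 and 11.2 FPKM in OX Al, again without overlap, with -0.37 on the log2 scale (SE 0.12, adjusted p 0.38, limma). The control values of *ACLB-1*, 47.6, 37.3 and 42.8 FPKM for WT and 38.0, 38.0 and 34.3 FPKM for OX, and of *mMDH2*, 15.3, 15.1 and 17.6 FPKM for WT and 17.7, 14.4 and 13.3 FPKM for OX, overlapped. Averaged over both treatments, an added comparison, 0 members had an adjusted p of at most 0.05 by limma and by limma voom. In that fit, 2 had an unadjusted p under 0.05, *ACLB-1* (-0.31, adjusted p = 0.352, limma) and *mMDH2* (-0.23, adjusted p = 0.468, limma).

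In all, 6 members were lower in every OX Al than in every WT Al library, *ACLB-1*, *mMDH2*, *NAD-ME2*, *PPC2*, *NADP-ME4* and *ACO1*, and 0 were higher. Among all genes, 10.8% were lower and 8.77% higher in this sense. The counts were not tested, and no order against these shares is read from them. For *ACO1* the groups were narrowly apart, with 136.9 FPKM in the highest OX Al and 138.3 FPKM in the lowest WT Al library. Green-tissue genes were also lower in OX Al (summed level 250.35 to 340.4 FPKM) than in WT Al replicates 2 and 3, but not than in WT Al replicate 1 (175 FPKM). Without WT Al replicates 2 and 3 the log2 fold change was -0.51 for *ACLB-1* and -0.35 for *mMDH2* (-0.41 and -0.37 with them). That fit has WT Al replicate 1 as the only WT Al library, so its values have no spread in WT Al. The part of green tissue in these differences was not tested. In control roots, only *NADP-ME3* lay above in every OX library (3.93% of all genes above, 3.91% below), at 0.571 to 0.642 FPKM against 0.324 to 0.511 FPKM in WT, and 0 members lay below. *NADP-ME3* had only 12 to 25 fragments per library, near the limit on low values, so this gap is a matter of few fragments. The member ranked first in control was *CSY4* (limma, log2 fold change 0.28, adjusted p = 1), whose WT control replicate 1 was low, and without that library the log2 fold change was 0.08.

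**Figure D4:**
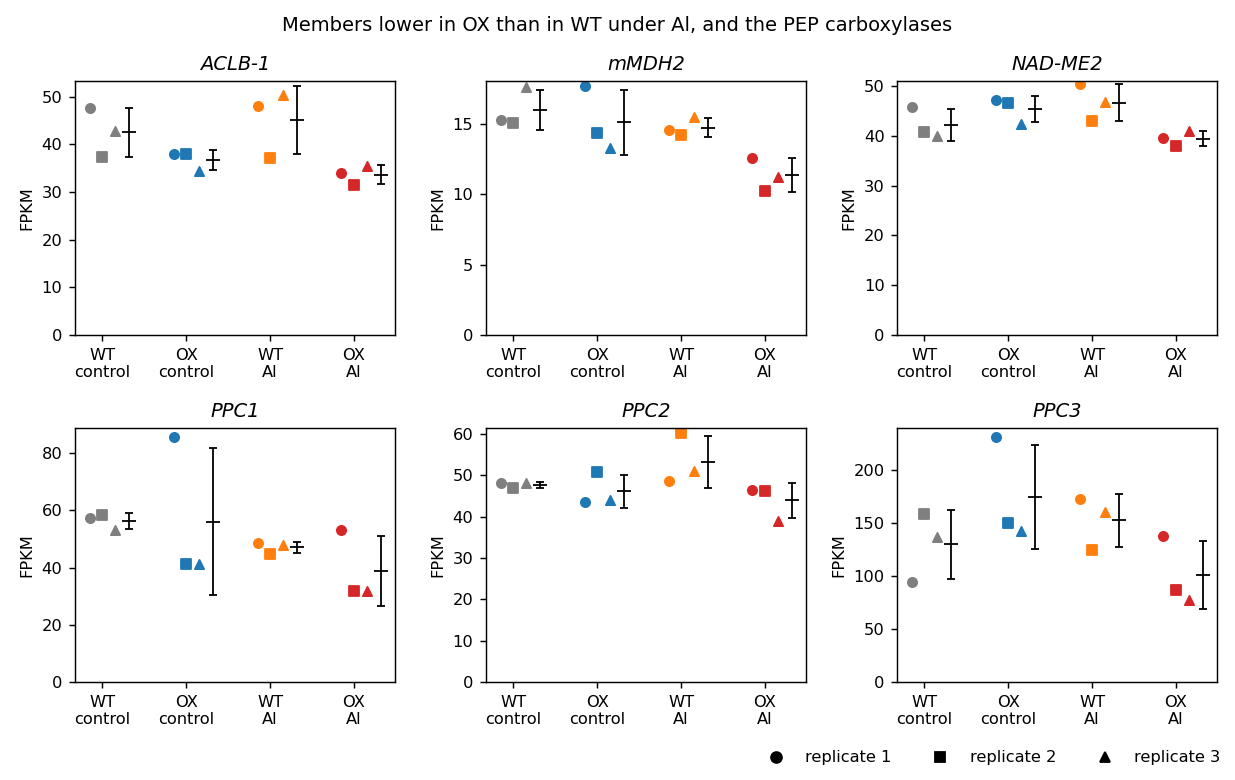
FPKM of *ACLB-1*, *mMDH2*, *NAD-ME2* and 3 PEP carboxylase genes by group, with a symbol for each replicate and mean ± SD (n = 3) at the right of each group. OX Al libraries are below WT Al libraries without overlap for *ACLB-1*, *mMDH2*, *NAD-ME2* and *PPC2*, and the spread of *PPC1* and *PPC3* is wide in OX.

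For the difference between the genotypes in the response to Al, *PPC3* and *NAD-ME2* ranked first by unadjusted p, without passing the adjusted limit. *PPC3* had a log2 fold change with Al of 0.25 in WT and -0.80 in OX, and the difference was -1.05 (SE 0.38, 95% interval -1.88 to -0.22, adjusted p = 0.94, limma). OX control replicate 1 (231 FPKM) and WT control replicate 1 (94.7 FPKM) were the extremes of the controls, and without them the difference was -0.62 (SE 0.33). *NAD-ME2* had 45.8, 40.8 and 39.9 FPKM in WT control and 50.3, 42.9 and 46.7 FPKM in WT Al, and 47.2, 46.6 and 42.3 FPKM in OX control and 39.5, 37.9 and 40.9 FPKM in OX Al libraries. Its change was 0.14 in WT and -0.20 in OX on the log2 scale, a difference of -0.34 (SE 0.13, adjusted p = 0.94, limma). *NAD-ME1*, the partner subunit, had a difference of -0.22 (adjusted p = 0.94, limma).

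The 3 tested PEP carboxylases had changes of different size, and none passed the test. Under Al, OX had the lower mean for all 3 (log2 fold changes -0.32 for *PPC1*, -0.27 for *PPC2* and -0.63 for *PPC3*), and for Al in OX the values were -0.48, -0.07 and -0.80. None had an adjusted p under 0.1. In OX control, replicate 1 stood above replicates 2 and 3 for *PPC1* (85.7, 41.2 and 41.2 FPKM) and *PPC3* (231, 150.1 and 143 FPKM). The *PPC1* value of -0.48 for Al in OX thus rested in large part on that control library. In OX Al, replicate 1 stood above replicates 2 and 3 for *PPC1* (52.9, 31.7 and 31.8 FPKM) and *PPC3* (137, 86.5 and 77.8 FPKM). OX Al replicate 1 was the highest of its group for 25 of the 36 members (69.4%) and for 37.6% of all genes tested. OX control replicate 1 was the highest of its group for 19 of 36 (52.8%), against 38.3% of all genes. Without OX Al replicate 1, the median of the members for Al in OX was -0.21 (-0.12 with all libraries), and without OX control replicate 1 it was -0.10.

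Several members went with the low *ALMT1* and *MATE* values of control replicate 1. *NADP-MDH* had 13.7, 51.8 and 60.2 FPKM in WT control and 11.0, 73.3 and 68.7 FPKM in OX control libraries, against 71.5, 66.4 and 57.0 FPKM in WT Al and 53.4, 84.9 and 65.0 FPKM in OX Al. Replicate 1 of both control groups was thus far below the other 10 libraries, 3.96-fold below the geometric mean of the other controls in WT and 6.22-fold in OX. *NADP-ME2* had 389, 1015 and 1021 FPKM in WT control and 655, 1237 and 993 FPKM in OX control libraries, and 832, 832 and 857 FPKM in WT Al and 1025, 883 and 829 FPKM in OX Al. Here replicate 1 was 2.61-fold lower in WT and 1.69-fold lower in OX, and *TDT* was 1.35-fold and 2.53-fold lower. In the same libraries *ALMT1* had 15.6 and 30.0 FPKM, against 94.98 and 121 FPKM in the other WT and 165 and 161 FPKM in the other OX controls. *MATE* had 4.30 and 8.12 FPKM, against 51.5 to 79.9 FPKM in the other controls.

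*NADP-MDH* and *NADP-ME2* were the members at least 1.5-fold lower in control replicate 1 of both genotypes, 2 of 36, and 0 were at least 1.5-fold higher in both. Among all genes tested the shares were 2.79% and 1.72%. The comparison of replicate 1 with the other controls was chosen after the values were seen. The Al response of these genes depended on this library. For *NADP-MDH* the log2 fold change with Al was 0.87 in WT (SE 0.68) and 0.79 in OX (SE 0.68) with all libraries, and 0.21 (SE 0.18) and -0.09 (SE 0.18) without control replicate 1. For *NADP-ME2* it went from 0.19 in WT and -0.03 in OX to -0.28 and -0.29, so the WT value changed sign. Nothing in the labels sets replicate 1 apart from the other controls.

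**Figure D5:**
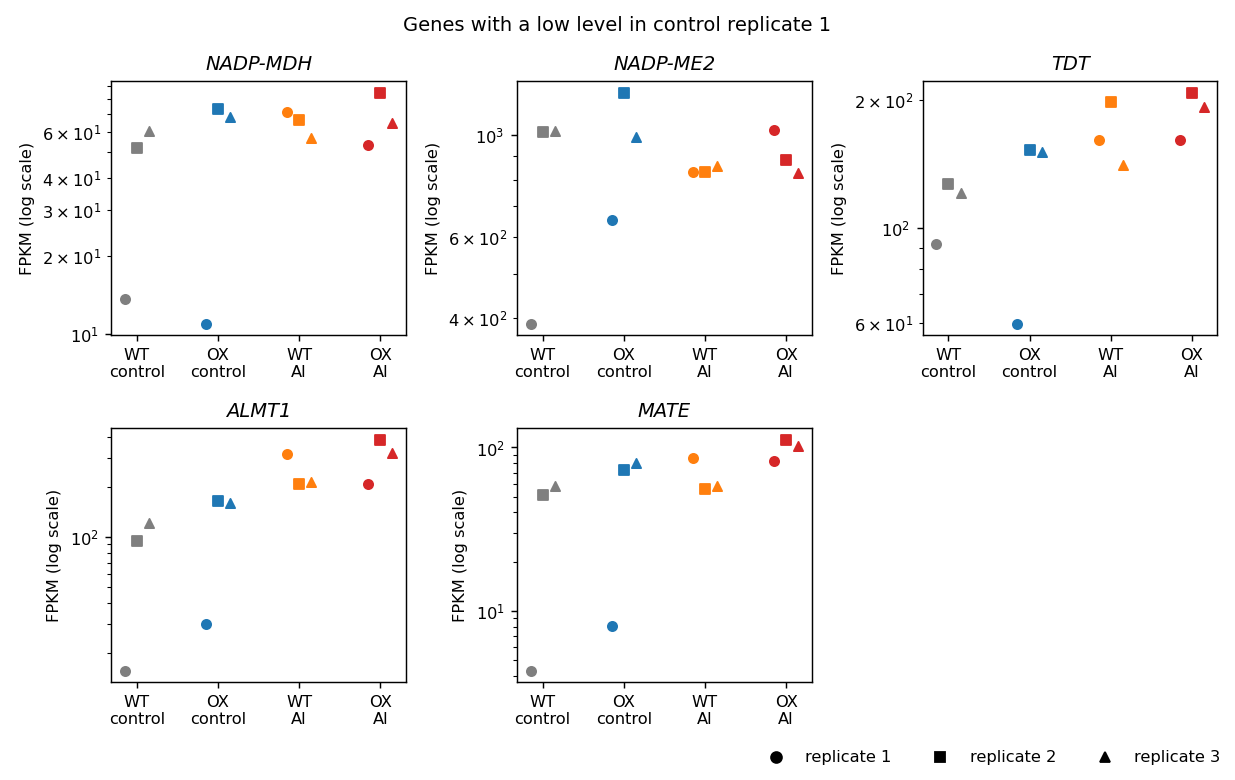
FPKM on log axes of *NADP-MDH*, *NADP-ME2*, *TDT* and the exporters *ALMT1* and *MATE* by group, with a symbol for each replicate. Control replicate 1 (circles) of WT and OX is the lowest library of each genotype in all 5 panels.

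The bases before *NADP-ME2* (chr5:3753841-3754090, plus strand) and *TDT* (chr5:19291104-19291353, minus strand) are shown because both genes were low in control replicate 1, as the exporters were. The 250-base windows of TAIR10.1 were read as for *ACLA-2*, and neither held CATGT or CACGTG, so no base is in capitals.
NADP-ME2: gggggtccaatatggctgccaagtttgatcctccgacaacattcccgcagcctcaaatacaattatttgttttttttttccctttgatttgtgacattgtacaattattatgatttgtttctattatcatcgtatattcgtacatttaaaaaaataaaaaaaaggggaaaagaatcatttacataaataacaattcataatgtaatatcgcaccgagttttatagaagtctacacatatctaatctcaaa
TDT: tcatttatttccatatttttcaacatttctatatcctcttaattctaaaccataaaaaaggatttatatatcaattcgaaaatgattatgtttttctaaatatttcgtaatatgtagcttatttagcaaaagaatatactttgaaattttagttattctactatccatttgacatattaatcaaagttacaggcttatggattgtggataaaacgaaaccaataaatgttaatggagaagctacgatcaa

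The glyoxylate cycle enzymes isocitrate lyase and malate synthase, which turn isocitrate and acetyl-CoA into malate, were the least even members beside *NADP-MDH*. *ICL* (AT3G21720) had 258, 126 and 47.99 FPKM in WT control and 140.3, 176 and 302 FPKM in OX control, 259, 227 and 247 FPKM in WT Al and 244, 216 and 133 FPKM in OX Al libraries. *MLS* (AT5G03860) had 26.3, 6.04 and 3.27 FPKM and 7.02, 11.4 and 14.4 FPKM in the WT and OX controls, and 12.03, 5.33 and 8.41 FPKM and 12.7, 5.13 and 6.78 FPKM in WT Al and OX Al. Both were highest or near the highest in WT control replicate 1 and lowest in WT control replicate 3, and the groups overlapped. The log2 fold change of *ICL* with Al was 1.07 in WT (95% interval -0.03 to 2.16) and -0.03 in OX (-1.13 to 1.06), and that of *MLS* -0.01 (-1.36 to 1.34) and -0.43 (-1.78 to 0.92). The difference between the genotypes in the Al response was -1.10 for *ICL* (95% interval -2.65 to 0.45), the largest of the members in size. Without control replicate 1 of both genotypes the log2 fold change of *ICL* with Al was 1.64 in WT (adjusted p = 0.0898, limma) and -0.27 in OX, with a difference of -1.91 (adjusted p = 0.399, limma). That of *MLS* was then 0.80 in WT, where it changed sign, and -0.71 in OX. For OX against WT in control, *ICL* went from 0.75 to 1.56 and *MLS* from 0.34 to 1.42 without these libraries (adjusted p = 0.457 and 0.519, limma). The seed storage genes *CRA1*, *CRU3* and *OLE1* were at most 0.663 FPKM in all libraries, while *OLE2* reached 2.67 FPKM in WT control replicate 1. *EM6* had 2.13 FPKM in that library but was highest in OX control replicate 1 (2.59 FPKM). It had 1.59 FPKM in OX control replicate 3 and 1.54 FPKM in OX Al replicate 2. The part of seed transcripts in the values of *ICL* and *MLS* was not tested.

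Of 32 other genes of the same pathways, 27 were tested. They cover other isoforms, subunits of pyruvate, 2-oxoglutarate and succinate dehydrogenases, PEP carboxylase kinases and organelle carriers. In each of the 5 comparisons 0 of them had an adjusted p of at most 0.05 (limma). In the order given above for the members, 5, 0, 1, 2 and 0 had an unadjusted p under 0.05 (10.8%, 4.71%, 12.5%, 13.7% and 4.98% of all genes). For Al, 10 of 27 were above 0 in WT (52.4% of all genes) and 7 of 27 in OX (48.1%). Counts without single libraries are not given for these genes, so no order against these shares is read. The lowest p-values with Al were those of *PPCK2* (AT3G04530), a kinase that phosphorylates PEP carboxylase. *PPCK2* had 32.1, 37.5 and 51.0 FPKM in WT control and 30.4, 24.4 and 28.1 FPKM in WT Al, and 36.3, 41.5 and 40.3 FPKM in OX control and 28.2, 23.9 and 26.4 FPKM in OX Al libraries. All Al libraries of a genotype were below its controls, and over both genotypes *PPCK2* fell by 0.55 on the log2 scale (SE 0.11, adjusted p = 0.0167, limma). The second in WT was *PPCK1* (AT1G08650; log2 fold change -0.36, adjusted p = 0.422, limma) and in OX the plastid 2-oxoglutarate/malate carrier *DIT1* (AT5G12860; -0.39, adjusted p = 0.11, limma).

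For OX against WT under Al the first were the plastid dicarboxylate carrier *DIT2.1* (AT5G64290, with WT at 20.3, 20.6 and 22.1 FPKM and OX at 16.9, 14.6 and 17.1 FPKM) and *PPCK1* (WT at 39.9, 34.4 and 36.6 FPKM and OX at 58.6, 56.1 and 41.5 FPKM). *DIT2.1* was lower and *PPCK1* higher in every OX library, at log2 fold changes of -0.37 and 0.47 (adjusted p = 0.385 and 0.385, limma). In control the first were a 2-oxoglutarate dehydrogenase E1 gene (AT3G55410, 0.17) and the succinate dehydrogenase subunit *SDH2-2* (AT5G40650, 0.14), and in the interaction *DIT2.1* (-0.32) and *DIT1* (-0.25), all with adjusted p over 0.9. With all libraries, the exporters had larger and more scattered changes. *ALMT1* had 314, 209 and 214 FPKM in WT Al and 209, 385 and 320.5 FPKM in OX Al, and *MATE* 86.1, 55.6 and 58.4 FPKM and 83.0, 112 and 102 FPKM. With Al the log2 fold change of *ALMT1* was 2.08 in WT (SE 0.76, adjusted p = 0.287, limma) and 1.66 in OX (SE 0.76, adjusted p = 0.37, limma), and that of *MATE* 1.43 and 1.41. These changes include the low control replicate 1, and values without it are not given for the exporters. In WT, *MATE* had 51.5 and 58.1 FPKM in control replicates 2 and 3, so the WT Al libraries overlapped these controls. For *ALMT1* in both genotypes and *MATE* in OX, the Al libraries lay above control replicates 2 and 3. The exporter values share their control libraries with those of *TDT*, *NADP-ME2* and *NADP-MDH*, and in roots fewer cells that express a gene and less RNA per cell cannot be told apart.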

How the data were processed

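The authors sequenced roots as paired reads, mapped them on TAIR10 by HISAT2, made gene counts by HTSeq 0.6.0 (version from the submitters' processing notes) and deposited FPKM per gene and library, and their own tests used DEGseq. No column with values of other samples was found (0). FPKM were used as deposited. Fragments were read back from the steps of the FPKM for 100% of 25872 genes (tolerance 0.01 fragments).

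Linear models of log2(FPKM + 0.5), which understate changes of genes with low FPKM, were fitted to all 12 libraries with limma 3.58.1 in R 4.3.3, with a mean per group and variances with a trend, for the 20773 genes at 0.5 FPKM or more in 3 libraries. P-values were adjusted over these genes. The scripts were tested on simulated data. Each member is named with its level, except 1 that enters the counts and medians but is not reported here. Values in every library are given for the members with the 2 smallest p-values per comparison, for the highest member of each class and where isoforms are compared, and others (*TDT*, *NADP-MDH*, *ICL*, *MLS*) were chosen after their values were seen. Members and lists were chosen with earlier results of these data known. The averages over genotypes or treatments were added after seeing the data. The alternatives were pseudocounts of 0.1 and 1, other filters, quantile and median-ratio scaling, a fit to the compared groups alone, a replicate block, no trend, limma voom, an adjusted p alone, and leaving out libraries. Names, positions and bases are from RefSeq for TAIR10.1. Protein comparisons were not made here. Tables and figures used Python 3.11.15 and matplotlib 3.10.9.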

Additional observations from a re-analysis of the deposited data

How the results depend on the processing

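The count of members called stayed at 0 in the 5 comparisons under every alternative run. The median log2 fold change of the members kept its sign in all 5 and moved by less than its spread between libraries (0.08), with 1 exception, Al against control in OX, where it was -0.21 without OX Al replicate 1 and -0.12 with all libraries (range without 1 library -0.21 to -0.10). Without 1 library it lay at -0.16 to -0.07 for OX against WT under Al, 0.01 to 0.10 in control, 0.04 to 0.12 for Al in WT and -0.22 to -0.15 for the interaction, so in control it came close to 0. In the added comparison of Al over both genotypes, 2 members passed an adjusted p of at most 0.05, 2 to 3 without 1 library, and 1 without WT Al replicates 2 and 3, where the fit has 2 fewer libraries. Of 557 alternative values, 552 kept their direction and side of the limit, stayed within the spread or were counts that stayed equal or rose from 2 to 3. The other values are the 2 above, *ACLA-2* and *IDH2* in OX without OX Al replicate 1 (0.82 and -0.60, both then past the limit) and *IDH2* over both genotypes without WT Al replicates 2 and 3 (-0.51, adjusted p = 0.0905, limma). The cause was not tested. The 557 values cover only counts, medians and the 2 members with the smallest p-values in each comparison. The sign changes with Al of *NADP-ME2* and *MLS* in WT and *NADP-MDH* in OX, without control replicate 1, are not among them.

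Replicate numbers recur between groups, but libraries that share a number deviated from their group means with correlations of -0.247 to 0.286, so the numbers were not taken to pair the samples. With the replicate number as a block, 0 members were called in each of the 5 comparisons, the members' medians were unchanged, and 2 members passed in the added Al comparison. Depth limits *CSY1*, *CSY5*, *PPC4* and *FUM2*, which had at most 22 fragments in a library, and *NADP-ME3*, which had 12 to 25.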
